A study of Homo sapiens with 6 samples.

Results

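The m6A peaks of the ZNF genes were examined, ZNF being the symbol root given to zinc finger proteins with a serial number. Members were all rows of the deposited peak list, of any location class, whose gene symbol begins with ZNF followed by a number. The rule took 706 of 15940 peaks, and these lay in 327 of the 8906 genes that have a peak. No measured value entered the rule. Of the 706 peaks, 645 carried a symbol of ZNF and digits alone, and 13 were assigned to 9 antisense, readthrough or pseudogene symbols. Another 4 peaks, 2 of ZNF26 and 2 of ZNF84, were listed on an unplaced contig. Both genes also had peaks on chromosome 12 at nearly the same distance from the transcript start. The distances were 23826 and 23825 bases in ZNF26 and 21725 and 21723 in ZNF84. Peaks of both places were counted, and whether they are the same sites was not tested.

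All libraries came from TE-10, an established human cell line from an esophageal carcinoma, and were made from polyadenylated RNA. Peaks come from methylated RNA immunoprecipitation, in which fragmented RNA is pulled down with an antibody to N6-methyladenosine (m6A) and compared with input RNA. It was run on cells with normal METTL3, with 1 input library and 2 libraries pulled down with Synaptic Systems antibodies of different catalogue numbers. Expression was measured by RNA-seq in 1 control library from cells with normal METTL3 expression and in 2 libraries from cells with a stable shRNA knockdown of METTL3, titled sh1 and sh2 and here called knockdown 1 and knockdown 2. Where a gene has 3 expression values in a row, they are those of the control, knockdown 1 and knockdown 2, in this order. No peaks of knockdown cells were examined, so the peaks were not compared between conditions. Nothing in the labels says whether libraries came from separate cultures. The p-values measure only the spread between the sh1 and sh2 libraries, whose titles read as different shRNAs. Differences between shRNAs, between cultures and technical ones cannot be told apart in it. RNA of a bulk culture was measured, in which fewer cells with a transcript and less of it per cell cannot be told apart.

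METTL3 is the catalytic subunit of the nuclear complex that writes m6A on mRNA, and m6A is known to be dense in long internal exons, around stop codons and in 3′ untranslated regions (UTRs). ZNF proteins are mostly transcription factors of the C2H2 class, in which cysteines and histidines hold a zinc ion and tandem fingers read DNA. In many of them all fingers are encoded in one long last coding exon, and many also carry a KRAB domain that binds the corepressor TRIM28, which brings in the histone methyltransferase SETDB1 and silences transposable elements. Many of these genes lie in clusters on chromosome 19.

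The list calls 43 ZNF peaks Upstream of the annotated transcript start. To show what lies at such peaks, the 250 bases before the RefSeq start (GRCh38.p14) are printed for 3 genes with a peak centred within 250 bases before the start and a high control value. Capitals mark GGAC, a core form of the m6A motif, on the gene's strand. The peak list's coordinates are not those of this build and its start may differ from RefSeq's, so the windows show the promoter and not the exact peak. The ZNF787 window is chr19:56121296-56121545 on the minus strand, the ZNF428 window chr19:43619630-43619879 on the minus strand and the ZNF771 window chr16:30407356-30407605 on the plus strand.
ZNF787: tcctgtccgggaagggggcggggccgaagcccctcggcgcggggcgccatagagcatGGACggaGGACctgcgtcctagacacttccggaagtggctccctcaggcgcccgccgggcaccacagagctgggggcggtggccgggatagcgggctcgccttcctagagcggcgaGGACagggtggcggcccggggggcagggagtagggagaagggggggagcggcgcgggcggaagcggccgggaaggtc
ZNF428: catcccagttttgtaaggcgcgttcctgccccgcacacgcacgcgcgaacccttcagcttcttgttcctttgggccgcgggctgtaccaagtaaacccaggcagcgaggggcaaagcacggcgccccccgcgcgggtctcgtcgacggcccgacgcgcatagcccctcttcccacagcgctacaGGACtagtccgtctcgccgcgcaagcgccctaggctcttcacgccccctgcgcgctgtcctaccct
ZNF771: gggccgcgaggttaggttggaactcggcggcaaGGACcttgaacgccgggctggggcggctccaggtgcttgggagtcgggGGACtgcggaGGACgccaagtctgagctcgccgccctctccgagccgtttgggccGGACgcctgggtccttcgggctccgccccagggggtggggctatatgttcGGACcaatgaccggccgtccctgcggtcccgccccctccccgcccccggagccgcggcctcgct
The ZNF787 peak was 481 bases wide and centred 12 bases before the listed start, the ZNF428 peak 295 bases wide and 13 bases before it, and the ZNF771 peak 286 bases wide and 34 bases before it. The window held 3 GGAC in ZNF787, 1 in ZNF428 and 5 in ZNF771, at 74.8%, 67.2% and 73.2% G and C. On the other strand, read as its reverse complement GTCC, it held 2, 2 and 3. Among all RefSeq promoter windows of this length, ZNF ones included, 58.8% of 27305 held GGAC, against 71.0% of the 276 windows of ZNF genes with a peak, and GTCC was in 59.6% and 75.4%. The median G and C content was 58.0% over all windows and 62.8% over those of ZNF genes with a peak. A match describes the letters only and marks no methylated base. Of the 43 Upstream ZNF peaks, 10 were centred within 250 bases of the start and 29 (67.4%) within 1000 bases.

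ZNF peaks lay more often in the exonic class than other peaks did. The list calls this class Exon/CD and keeps it apart from its UTR classes. It held 351 of 706 ZNF peaks, 49.7% (95% Wilson interval 46.0 to 53.4), against 5078 of 15234 peaks of other genes, 33.3% (32.6 to 34.1). The 5′ UTR class held 40 ZNF peaks, 5.67% (4.19 to 7.62), against 11.8% (11.3 to 12.4) of the others, and the Intron class 122, 17.3% (14.7 to 20.2), against 23.8% (23.1 to 24.5). The 3′ UTR class did not separate them, with 142 ZNF peaks, 20.1% (17.3 to 23.2), and 21.5% (20.9 to 22.2) of the others. Upstream peaks were 6.09% (4.55 to 8.10) against 7.92% (7.50 to 8.36) and Downstream peaks 1.13% (0.575 to 2.22) against 1.61% (1.42 to 1.82), and both pairs of intervals overlapped. These intervals cover counting error only, within a single peak list, and treat peaks of 1 gene as independent. Each class follows the transcript listed for the peak, and other transcripts of the gene were not examined. ZNF410, for one, had a 3′ UTR peak centred 10 bases after the start. Whether Intron peaks lie in exons of other transcripts was not tested. With each gene given equal weight the Exon/CD share was 53.8% in ZNF genes and 32.3% in others, and the 5′ UTR share 4.81% and 13.7%.

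**Figure D1:**
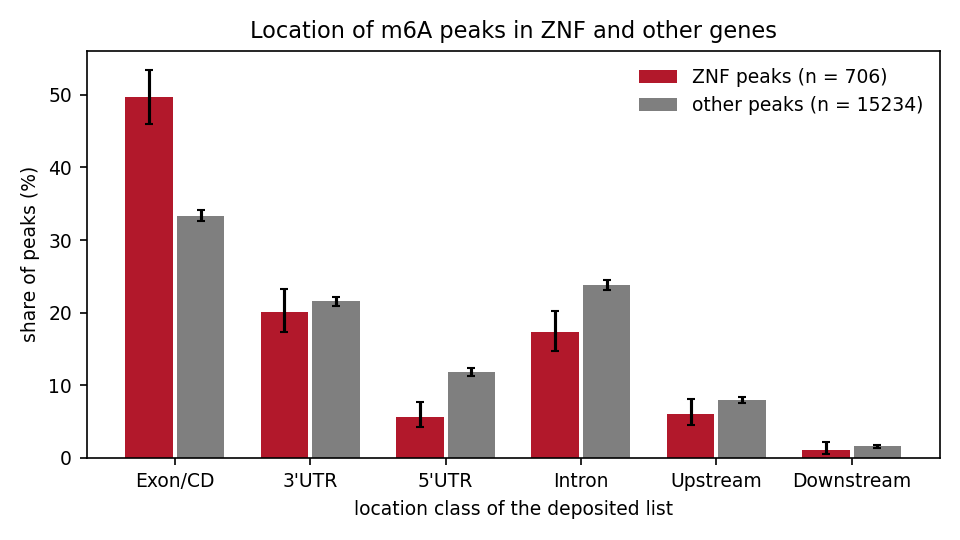
Share of m6A peaks (%, bars, from 0) in each location class of the deposited list for 706 ZNF peaks and 15234 peaks of other genes, with 95% Wilson intervals as error bars. The Exon/CD bar stands at 49.7% for ZNF peaks and 33.3% for the others, and the 5′ UTR bar at 5.67% and 11.8%.

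The same exonic share was found on and off the chromosome with most of the clusters. Chromosome 19 held 248 ZNF peaks in 134 genes, 35.1% (31.7 to 38.7) of ZNF peaks, against 5.10% of other peaks. Exon/CD peaks were 126 of these 248, 50.8% (44.6 to 57.0), and 225 of the 458 ZNF peaks elsewhere, 49.1% (44.6 to 53.7). Other genes on chromosome 19 had 264 Exon/CD peaks of 777, 34.0% (30.7 to 37.4). Chromosome 16 came next with 81 ZNF peaks in 27 genes, 11.5% of ZNF peaks, and chromosome 7 with 54 in 23 genes, 7.65%. ZNF genes with a peak on chromosome 19 had fewer peaks each, 1.85 on average against 2.37 elsewhere. Their median control value was also lower, 1.9 against 3.985 over those tested, and the part of this difference in the number of peaks was not tested.

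Families of related finger genes under other symbols had shares in the same range as the ZNF genes, with wide intervals. Exon/CD peaks were 50 of 81 in ZBTB genes (61.7%, 50.8 to 71.6), whose proteins pair fingers with a BTB dimerization domain. In the SCAN-domain genes they were 15 of 26 for ZSCAN (57.7%, 38.9 to 74.5) and 10 of 17 for ZKSCAN (58.8%, 36.0 to 78.4). ZFP genes had 16 of 34 (47.1%, 31.5 to 63.3). KLF genes, which encode factors with a short run of fingers at the C-terminus, had 16 of 30 (53.3%, 36.1 to 69.8). Each of these intervals includes the ZNF share except that of ZBTB. Families were taken by the listed symbol, so the ZNF set holds some of their members under older symbols. Examples are ZNF187 (ZSCAN26), ZNF192 (ZKSCAN8) and ZNF295 (ZBTB21).

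ZNF genes with a peak also carried more peaks each. They had 2.16 ± 1.34 peaks (SD over 327 genes; median 2, most 11), against 1.78 ± 1.21 in the 8579 other genes with a peak (median 1, most 18). At least 2 peaks were listed for 201 ZNF genes, 61.5% (56.1 to 66.6), against 44.0% (43.0 to 45.1), and at least 3 for 99, 30.3% (25.5 to 35.5), against 18.4% (17.6 to 19.3). By number of peaks, 126 ZNF genes had 1, 102 had 2, 56 had 3, 23 had 4, 10 had 5, 8 had 6, 1 had 7 and 1 had 11. A higher mean than in all other genes was not particular to ZNF genes. It was 2.38 in 34 ZBTB genes with a peak, 2.36 in 11 ZSCAN and 3.4 in 5 ZKSCAN genes. In 17 ZFP genes it was 2.0 and in 16 KLF genes 1.88.

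Seen gene by gene, 229 of the 327 ZNF genes had an Exon/CD peak, 70.0% (64.9 to 74.7), against 42.3% of other genes with a peak. For 126 of them, 38.5% of the 327, every peak was of that class, against 23.0% of the others. A 3′ UTR peak was present in 112 ZNF genes, 34.3%, against 31.3%, but it was rarely the only class: 27 ZNF genes, 8.26%, had 3′ UTR peaks alone, against 15.5%. Both classes together were found in 61 ZNF genes, 18.7% (14.8 to 23.2), and in 8.80% of the others. A 5′ UTR peak was present in 33, 10.1% (7.28 to 13.8), against 19.4%. No peak in an exon or UTR was listed for 39 ZNF genes, 11.9% (8.85 to 15.9), against 23.2%, and for 30 of these 39 every peak was intronic.

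ZNF 5′ UTR peaks lay far from the transcript start more often than those of other genes. Only 16 of the 40, 40.0%, were centred within 1000 bases of the start, against 1408 of 1802, 78.1%, in other genes. The median distance was 2178.5 bases against 136, measured along the genome with introns included. It is counted from the start of the transcript listed for the peak, and other starts were not examined. The 40 peaks lay in 33 genes, and the largest distance was 68163 bases, in ZNF22. The 3 peaks of ZNF217 lay 17727, 11989 and 11235 bases from the start, the last of them in the 5′ UTR class, and ZNF768 had 5′ UTR peaks at 141 and 2235 bases.

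Peaks were slightly wider in ZNF genes. The median was 346 bases (95% interval of the median 323 to 365; quartiles 250 and 522), against 315 (312 to 318; 237 and 474) in other genes, and no peak of the list was under 200. Within the Exon/CD class the medians were 386 (349 to 419) and 355 (348 to 361), and the intervals overlapped. Medians in the 3′ UTR class were 351 and 350 and in introns 286.5 and 280. In the 5′ UTR class the 40 ZNF peaks had a median of 321.5 against 246. Peaks of at least 1000 bases were 35, 4.96% (3.59 to 6.82), an interval that takes in the 3.69% of the other peaks.

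Where a gene had several Exon/CD peaks, they sat close together. Over 121 neighbouring pairs in ZNF genes the median distance between centres was 1013 bases (836 to 1137; quartiles 682 and 1647), and over 1448 pairs in other genes 1239 (1131 to 1349; 684 and 8725). The medians lay close and the upper quartiles far apart, so 3 in 4 ZNF pairs lay within 1647 bases. These distances run along the genome with introns included, so they are not spacings along the RNA. The share of pairs within 1000 bases was 49.6% (40.8 to 58.4) and 43.7% (41.2 to 46.3), with overlapping intervals. Exon/CD peaks covered a median of 563 bases per ZNF gene that had one (quartiles 338 and 917) and 473.5 per other gene.

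The 11 peaks of ZNF469, a gene mutated in brittle cornea syndrome, were the most in any ZNF gene, and all were Exon/CD. They spanned chromosome 16 from 88494113 to 88505916, in the list's own coordinates, were 207 to 637 bases wide and covered 4717 bases. Yet the gene was listed at 0 in the control and in knockdown 2 and at 0.02 in knockdown 1. The peaks of this gene therefore stand beside almost no listed RNA-seq signal, and the input library's level at it was not analysed here. ZNF763, with 2 intron peaks, was the other ZNF gene under 0.1 in every library, at 0.04, 0.09 and 0.02. In all, 50 of the 317 ZNF genes whose peaks could be joined to an expression value were under 1 in all 3 libraries, and they held 87 peaks.

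ZNF646 had the widest ZNF peak, 2377 bases on chromosome 16 from 31088935 to 31091311, and 3 more Exon/CD peaks beside it. Together they covered 5062 bases, the most of any ZNF gene, at expression values of 4.23, 4.02 and 3.5. Its 4 peaks lay almost end to end. ZNF687, which works with ZMYND8 and ZNF592 in a transcription complex, had a single Exon/CD peak of 2076 bases on chromosome 1 from 151258645 to 151260720, at values of 8.87, 8.7 and 9.58. The widest 3′ UTR peak was that of ZNF213, 1853 bases at 15.99, 18.33 and 14.96. ZNF623 had a peak of 2338 bases at 7.22, 6.83 and 5.34, and ZNF778 one of 1630 bases at 1.16, 1.02 and 1.59.

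Among ZNF genes with many peaks the classes were arranged in different ways. ZNF445, a regulator of genomic imprinting, had 7 peaks, of which 3 were Exon/CD, 1 was 3′ UTR and 3 were intronic, at values of 1.13, 1.08 and 1.68. ZNF629 had 3 Exon/CD and 3 3′ UTR peaks at 7.18, 7.6 and 8.62, and ZNF276 had 3 of its 6 peaks in the 3′ UTR at 5.68, 6.16 and 6.34. ZNF608 (5 of 6), ZNF516 (4 of 6) and ZNF518B (4 of 6) had mostly Exon/CD peaks. Their values were 0.75, 0.91 and 1.12 for ZNF608, 2.52, 1.82 and 2.2 for ZNF516 and 2.17, 2.11 and 1.93 for ZNF518B. In contrast, all 6 peaks of ZNF397 and 5 of the 6 of ZNF286B were intronic in the listed transcript. Their values were 3.98, 3.1 and 2.67 for ZNF397 and 0.99, 0.56 and 1.1 for ZNF286B. ZNF768 had 2 each of Exon/CD, 5′ UTR and intron peaks at 60.99, 62.37 and 74.37. None of these genes had knockdown values that moved the same way by as much as 2-fold. ZNF286B has a near-identical copy, ZNF286A, and many ZNF genes share finger repeats, so the assignment of reads between such copies is uncertain.

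**Figure D2:**
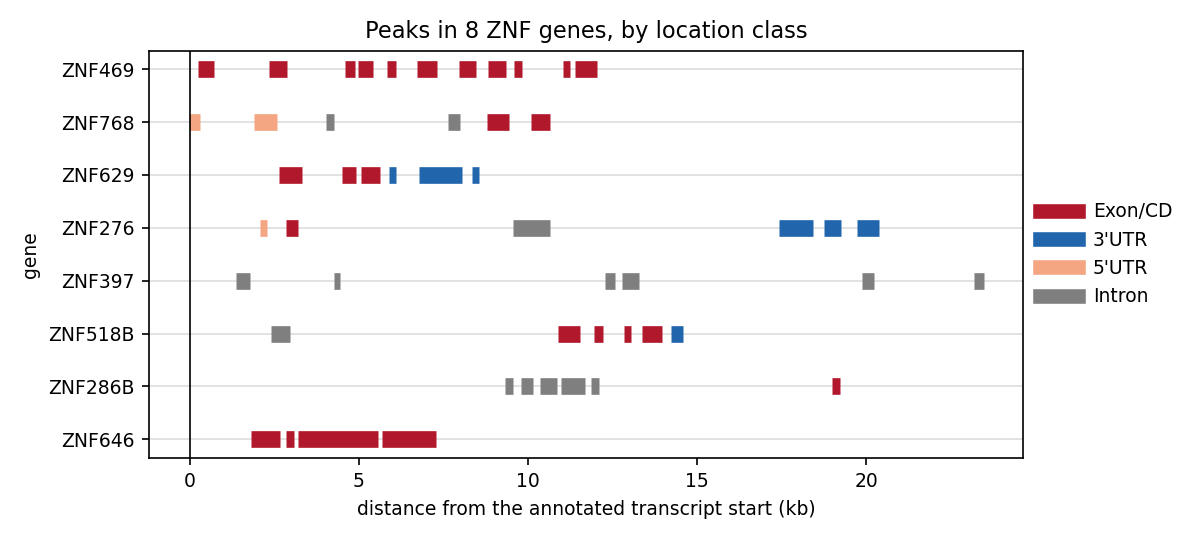
Peaks of 8 ZNF genes drawn to scale as blocks along the distance from the annotated transcript start (kb), coloured by location class. The genes are those with the most peaks, plus ZNF646, whose peaks are all centred within 25 kb of the start. ZNF469 carries 11 Exon/CD blocks over about its first 12 kb, ZNF646 4 nearly adjoining ones and ZNF397 intron blocks only.

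Expression values used below are the deposited ones, whose unit is not stated, and nothing shows whether they are scaled to gene length, so values rank a gene across libraries but not surely genes against one another. Column sums ran from 608291 to 627152, and read depth is unknown. METTL3 checked the labels, at 20.81, 8.35 and 4.99, with both knockdown values below the control, a mean log2 change of -1.54 (SE 0.327), and it had no peak. The 6 squamous markers summed to 2342.05, 2261.06 and 1358.13, lowest in knockdown 2. The 5 fibroblast markers summed to 3.41, 3.68 and 3.72, nearly all of it COL1A1, with DCN at 0, 0 and 0.01. The 3 leukocyte markers summed to 19.17, 8.19 and 10.27, nearly all of it CD68, which was lower in both knockdown libraries, with PTPRC at 0.17, 0.25 and 0.28. The 2 endothelial markers summed to 0.65, 0.16 and 0.27. Knockdown 2 also stood apart in that 29 genes had at least 5 there and under 0.5 in both other libraries, among them CDKN2A at 0.04, 0 and 144.68. None of the 29 was a ZNF gene, but only 508 of the 18249 genes listed were. With so few genes drawn, a count of 0 is near the background and says little about ZNF genes. Values below are given for knockdown 1 and knockdown 2 apart. The part of the marker levels in the ZNF values was not tested.

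At like control values, ZNF genes had a peak more often than other genes. Of 508 ZNF genes in the expression table, 311 had a control value of at least 1, and 244 of these had a peak, 78.5% (73.6 to 82.7), against 6521 of 11327 other genes, 57.6% (56.7 to 58.5). Between 1 and 2 the shares were 69.9% (60.5 to 77.9) and 53.6% (50.7 to 56.5), and between 2 and 5 83.9% (76.0 to 89.6) and 61.2% (59.1 to 63.2). From 5 to 10 they were 84.4% (71.2 to 92.3) and 63.1% (61.0 to 65.2), and from 10 to 20 86.2% (69.4 to 94.5) and 63.4% (61.3 to 65.4). At 20 and over, with 22 ZNF genes, 68.2% (47.3 to 83.6) and 50.7% (49.1 to 52.3) overlapped. Below 1 the shares were 33.5% (27.3 to 40.4) and 14.7% (13.8 to 15.6). The control value is that of the RNA-seq library and not of the immunoprecipitation input, and transcript length was not matched.

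Exon/CD peaks gave the same order. Of ZNF genes at 1 or more, 57.2% (51.7 to 62.6) had one, against 27.3% (26.5 to 28.2) of other genes. In the 5 ranges from 1 upward the ZNF shares were 57.3%, 58.9%, 66.7%, 55.2% and 31.8%, and those of other genes 34.5%, 35.9%, 34.5%, 28.9% and 16.1%. Among genes with a peak, the mean number of peaks was 1.90 in ZNF genes and 1.94 in others in the range from 1 to 2. It was 2.32 and 1.99 from 2 to 5, 2.45 and 1.94 from 5 to 10 and 2.68 and 1.81 from 10 to 20. At 20 and over, with 15 ZNF genes, it was 2.07 and 1.62. The ZNF mean thus rose up to 20 and was lower above it, and that of other genes was lowest at 20 and over. ZNF genes with more peaks had higher listed levels by median. The median control value was 1.62 in the 121 ZNF genes with 1 peak, 2.46 in the 99 with 2 and 3.15 in the 97 with at least 3, and the quartile ranges overlapped.

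**Figure D3:**
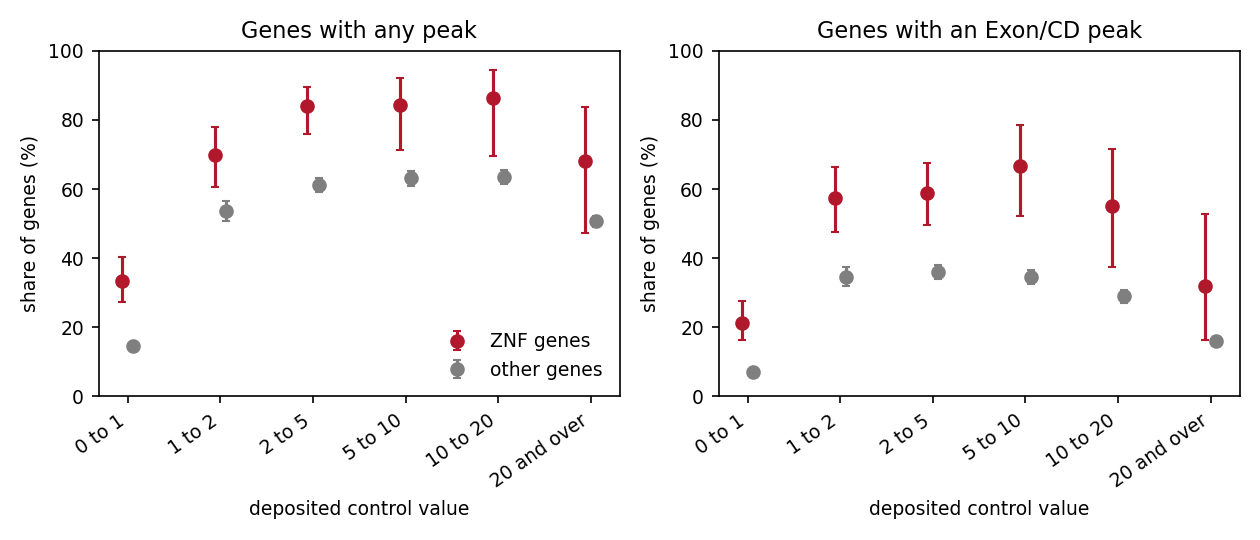
Share of genes (%) with any peak (left) and with an Exon/CD peak (right) by range of the deposited control value, as points with 95% Wilson intervals, for ZNF and other genes. For any peak, ZNF points lie above the others in each range, and the intervals overlap only at 20 and over, where ZNF genes stand at 68.2% and others at 50.7%.

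High expression did not always come with a peak. ZNF358, the ZNF gene with a peak that had the highest control value, was at 68.75, 66.62 and 86.03 with 1 Exon/CD peak. ZNF664 had 2 5′ UTR peaks and 1 intron peak at 55.79, 52.95 and 46.16, ZNF511 a single intron peak at 53.09, 59.2 and 52.74, and ZNF593 a 3′ UTR and a Downstream peak at 49.02, 52.23 and 59.29. ZNF385A, a partner of p53, had no peak at 75.29, 67.9 and 75.98, above every ZNF gene that had one in the control. ZNF207, a spindle assembly factor, had none at 56.59, 58.14 and 60.4. Nor had ZNF219 at 49.18, 44.89 and 40.55, ZNF580 at 32.26, 35.1 and 55.08 and ZNF32 at 28.07, 29.6 and 31.73.

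METTL3 knockdown was next compared with control across the ZNF genes with a peak, which asks whether transcripts that carry the mark change when its writer is lowered. No ZNF gene passed the test, and their changes centred on 0 in both knockdown libraries. Of the 327, 317 joined an expression value and 267, with 601 peaks, reached 1 in some library and so passed the filter on low values. Counts and medians over these 267 describe the genes that reached that level, not all 327. The test was limma on log2(value + 1) over all 12375 genes passing that filter. As the control is 1 library, the spread rests on the knockdown libraries alone, and the fit takes it over for the control. The adjusted p was under 0.05 for 0 of the 267 and for 0.0% of all genes, METTL3 among them. Before adjustment, limma's p was under 0.05 for 3 ZNF genes (ZNF703, ZNF296 and ZNF217) and for 162 genes in all. These are 1.12% of the 267 and 1.31% of all genes tested, so the ZNF share was near the background.

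Knockdown 1 gave the 267 a median log2 change of -0.02 and knockdown 2 one of 0.02, beside -0.01 and 0.00 over all genes tested. In both libraries 86 (32.2%) were higher than the control and 83 (31.1%) lower, against 28.0% and 30.4% of all genes, shares near the background. At least 2-fold changes on the log2(value + 1) scale numbered 0 higher and 0 lower in knockdown 1, against 0.242% and 0.404% of all genes. In knockdown 2 they numbered 2 higher and 0 lower, against 3.64% and 0.978%, and in both libraries the same way 0 and 0, against 0.0323% and 0.097%. Both knockdown libraries are set against the same control library, so values the same way in both are not independent.

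**Figure D4:**
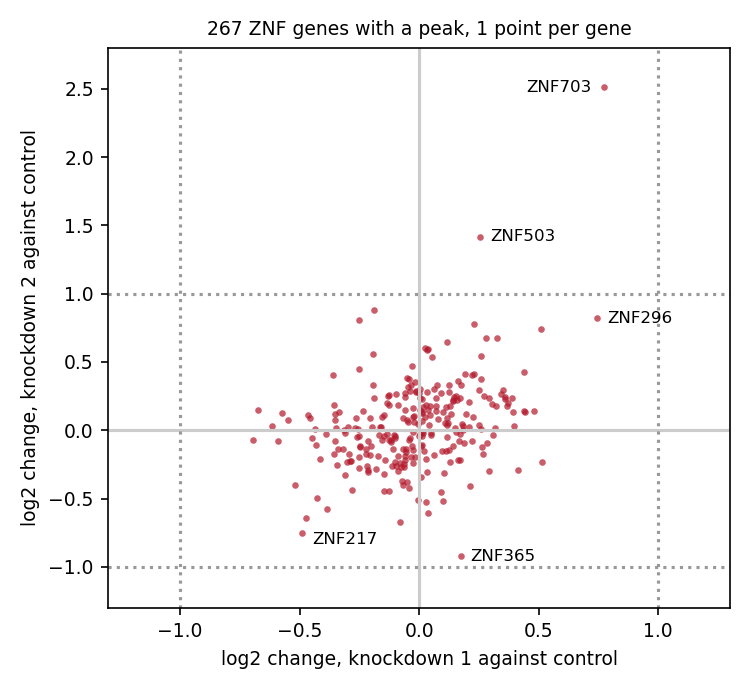
Log2 change on the log2(value + 1) scale of the 267 tested ZNF genes with a peak in knockdown 1 (x axis) and knockdown 2 (y axis), each against the single shared control, 1 point per gene, with dotted lines at 2-fold. The points centre on 0, and only ZNF703 and ZNF503 lie past 2-fold, in knockdown 2.

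Median changes lay near 0 at each number and class of peaks. Those with 1 peak (92 tested) had median changes of -0.05 and 0.02 (knockdown 1, then knockdown 2), those with 2 (85) 0.01 and 0.04, and those with at least 3 (90) 0.00 and -0.02. The 196 with an Exon/CD peak had medians of -0.00 and 0.04, with 72 (36.7%) higher in both libraries and 60 (30.6%) lower. The 71 whose peaks were all of other classes had -0.04 and -0.03, with 14 (19.7%) higher and 23 (32.4%) lower. The 86 tested ZNF genes without a peak had medians of -0.08 and 0.03, with 18 (20.9%) higher and 29 (33.7%) lower, at a lower median control value (1.58 against 2.99). For the 6732 other genes with a peak the medians were -0.02 and -0.03. Differences between these groups were not tested.

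Of the ZNF genes with a peak, ZNF703 had the largest mean change. It encodes a transcriptional repressor amplified in breast cancer and carried 2 Exon/CD peaks. The library values were 7.49, 13.51 and 47.37, a mean log2 change of 1.64 (SE 0.660; limma, adjusted p = 1.00). Both knockdown values were above the control, but they differed from each other more than knockdown 1 did from the control. The same held for the SD of these log2 differences over all genes tested, 0.505 against 0.279. ZNF503, a relative of ZNF703 chosen after its values were seen, was at 6.73, 8.23 and 19.63, so that it too was past 2-fold in knockdown 2 alone, the library with the lowest squamous marker sum.

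ZNF296, with 1 Exon/CD peak, was at 1.48, 3.16 and 3.38, a mean log2 change of 0.78 (SE 0.318; limma, adjusted p = 1.00). Its knockdown values lay close together and above the control. ZNF275 was at 1.34, 2.33 and 2.92 with 1 Exon/CD and 2 3′ UTR peaks, and ZNF777 at 8.03, 11.25 and 11.13 with 3 peaks. ZNF853, with 4 peaks, was at 1.22, 1.78 and 2.55, and ZNF627, with 2, at 1.86, 2.65 and 2.51. These 4 had mean log2 changes of 0.63, 0.43, 0.50 and 0.32, with SE of 0.350, 0.234, 0.383 and 0.329, and all had an adjusted limma p of 1.00.

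On the other side, ZNF217 was at 18.29, 12.75 and 10.45. This transcription factor, amplified in several carcinomas, had 2 Exon/CD peaks, one of them 1467 bases wide, and 1 5′ UTR peak. Its mean log2 change was -0.62 (SE 0.251; limma, adjusted p = 1.00), with both knockdown values below the control. ZNF860 was at 1.47, 0.78 and 0.58, ZNF684 at 1.31, 0.61 and 0.75 and ZNF419 at 3.29, 2.28 and 1.88. ZNF83 was at 3.55, 2.38 and 2.23 and ZNF827 at 2.72, 2 and 1.96. All of these had knockdown values below the control and an adjusted limma p of 1.00. ZNF365, chosen after its values were seen, parted the libraries, at 3.63, 4.23 and 1.44, with knockdown 1 above the control and knockdown 2 below it.

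**Figure D5:**
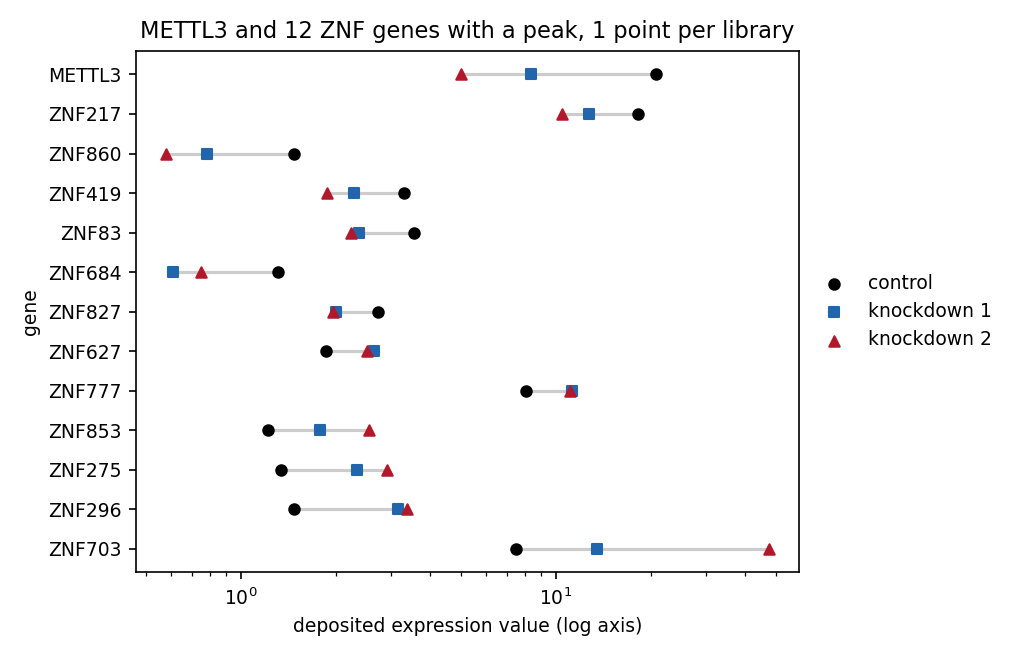
Deposited expression value (log axis) of METTL3 and of the 6 ZNF genes with a peak that were furthest above and the 6 furthest below the control in both knockdown libraries, 1 point per library. METTL3 runs from 20.81 to 4.99 and ZNF703 from 7.49 to 47.37, where the knockdown libraries lie far apart, while those of ZNF777 and ZNF83 nearly coincide.

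None of the partners through which KRAB zinc finger proteins silence chromatin passed the test. Of 22 symbols on this list, which holds both names of TASOR, 21 were tested, and 0 had an adjusted limma p under 0.05 or an unadjusted one. In both libraries 12 (57.1%) were higher and 7 (33.3%) lower than the control, beside 28.0% and 30.4% of all genes tested. The median log2 change was 0.08 in knockdown 1 and 0.09 in knockdown 2, beside -0.01 and 0.00. TRIM28, the corepressor that binds the KRAB domain, had no peak and was at 100.6, 122.25 and 125.12. SETDB1, the methyltransferase it recruits, had 1 Exon/CD peak and was at 4.17, 4.87 and 5.83, and its cofactor ATF7IP was at 7.19, 5.16 and 5.64 with 1 peak. FAM208A, the HUSH silencing complex subunit also called TASOR, had the most peaks of the list, 3, and was at 8.66, 7.98 and 7.24. ZFP57, a KRAB protein that guards imprinted loci, had 1 Exon/CD peak and was at 4.72, 3.14 and 4.23. DNMT3B, a de novo DNA methyltransferase, had none and was at 2.37, 3.28 and 4.61. In all, 10 of the 21 (47.6%) had a peak, with 13 peaks between them, beside 57.6% of genes other than ZNF at a control value of 1 or more.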

How the data were processed

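Alignment with TopHat2 to build hg38, counting with HTSeq and, for the immunoprecipitation, peak calling with MACS2 are named per the submitters' processing notes. Not given in the sources used here are versions and whether both antibody libraries were pooled. The deposited list gives each peak's position, gene, location class and distance to the transcript start as the authors annotated them, with no score. In it, 329 peaks on 14 chromosomes, 58 of them ZNF peaks, end past the last gene of GRCh38, so its coordinates are printed as deposited and no peak sequence was read. The deposited expression table holds a signal per gene and library in an unstated unit, not counts, so the count test was not run.

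Peaks joined expression by symbol (307 genes) or by an older symbol in RefSeq or the gene name table (10), and 10 genes with 18 peaks stayed unjoined. Knockdown was compared with control by limma 3.58.1 (R 4.3.3) on log2(value + 1) with a mean-variance trend and 1 residual degree of freedom, adjusted by Benjamini-Hochberg over 12375 genes and tested on simulated data. Fold changes on that scale understate those of low genes. Shares have Wilson intervals and widths intervals of the median (Python 3.11.15, pandas 2.3.3, scipy 1.17.1). Distances are from the listed start to the peak centre.

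Genes named are METTL3, the 10 ZNF genes with most peaks, the 5 highest with and the 5 highest without a peak, the hosts of the 5 widest peaks, the 6 with the largest change shared by both knockdown libraries on each side, and the corepressor list. All tested genes of that list enter its counts, but values are printed for only some, picked without a rule. Some other genes, among them ZNF22, ZNF410 and ZNF763, are named outside these rules. The members and lists were chosen with earlier results of these data known. Alternatives were other pseudocounts, filters and scalings, a fit without the trend, leaving out each knockdown library, and other ways to count peaks and genes.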

Additional observations from a re-analysis of the deposited data

How the results depend on the processing

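The limma settings called 0 of all genes at an adjusted p under 0.05, METTL3 included, so they say nothing on the stability of calls for ZNF genes. Single peaks per gene and gene weighting moved the location: the Exon/CD share of ZNF genes was 57.2% by the widest peak of each gene and 53.8% with genes weighted equally, and by the widest peak the 5′ UTR share was 3.36% and the Upstream share 2.75%. The median ZNF width was 386 bases for Exon/CD peaks alone and 462 for the widest peak per gene (377 in other genes). With exon and UTR peaks alone, 52.4% of ZNF genes with a peak had at least 2 (36.0% of others) and 72.0% of ZNF genes at a control value of 1 or more had a peak (46.5%). With any peak that share was 61.0% over all measured ZNF genes (42.1%) and 82.7% at 2 or more (58.0%).

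With a pseudocount of 0.1, 1 ZNF gene, ZNF296, was past 2-fold in both libraries (1.04 and 1.14). The 3 unadjusted calls became 1 with no filter, 1 with a mean of at least 2, 0 with quantile normalization and 1 without the trend, and the median change was -0.0277 with quantile normalization. The median change of ZNF genes with a peak, 0.01 in the test as reported, thus lay on either side of 0, also at -0.01 with no filter, as did the balance of genes above and below the control in both libraries, 86 and 83 as reported, 96 and 101 with no filter, 81 and 96 with quantile normalization and 86 and 87 with median-of-ratios scaling. Leaving out each knockdown library in turn gave 126 to 143 genes above the control, 123 to 140 below, 0 to 2 past 2-fold (2 without knockdown 1) and medians of -0.02 to 0.02; fewer libraries must then lie on the same side. Over the settings, 59 summary values stayed within their limits and 16 moved, and with a library left out 5 stayed and 3 moved. The limit was the interval for a share or a median width and a set ratio for a count or mean number. For the median change it was the SD between the knockdown libraries' medians. The 59 include the counts at an adjusted p under 0.05, which were 0 over all genes in every limma setting and so could not move. Single genes kept their direction in 75 values with a test and 26 with a library left out, which have none. Apart from METTL3, these genes were chosen for changes the same way in both libraries. Leaving out 1 library could therefore not reverse them. DESeq2 and edgeR were not run, since the table holds no counts. No paired analysis was possible because the control is 1 unnumbered library, and the numbers 1 and 2 are shared only by knockdown and immunoprecipitation libraries, which are never compared.

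Limits are set by 1 control library, an expression unit and depth that are unknown, and a single peak list with no score, no replicate column and no knockdown counterpart. A missing peak can therefore not be told from one below detection, and interval widths cover counting error only.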
